A study of Arabidopsis thaliana with 8 samples.

Results

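The SAUR genes (small auxin up RNA) of Arabidopsis thaliana were followed through 4 groups of whole wild-type seedlings. The genes were taken by locus from a list of 54 family members that was drawn up with earlier results of these data known, and all 54 were found among the 32678 genes of the deposited tables. Of them, 25 lay in tandem blocks on chromosomes 1, 4 and 5, with 8 on chromosome 1, 7 in a first and 4 in a second block on chromosome 4, and 6 on chromosome 5. A block of 4 lay on chromosome 3 and a block of 3 on chromosome 2, 6 genes formed locus pairs, and 16 stood alone. The reference annotation names 78 loci as SAUR genes, so 24 loci lay outside the list. The seedlings were of the Columbia accession, were raised on MS medium in continuous light at 22 °C, and were wild type per the labels. Their age was 10 days. The mock group served as control for 3 groups that had 50 μM of a compound for 3 h, namely abscisic acid (the hormone ABA), its catabolite phaseic acid (PA), or the next catabolite, dihydrophaseic acid (DPA). PA is the product that forms from ABA after hydroxylation of the 8′ carbon, and DPA is PA with a ketone reduced to a hydroxyl group. Each group held 2 biological duplicates, 8 libraries in all, each made from whole seedlings, so that a change in some organs and a change in all of them give the same reading.

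SAUR genes were first found as transcripts that appear within minutes of auxin treatment, and their mRNAs and proteins are short-lived. Proteins of the SAUR19 group bind and inhibit phosphatases of the PP2C-D clade, which otherwise remove an activating phosphate from plasma membrane proton pumps, so that SAUR proteins promote proton export, wall loosening and cell expansion. Other family members are driven by brassinosteroid, light, heat or ABA, and some act in leaf senescence or ethylene signalling. ABA limits the expansion growth of seedlings.

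Most SAUR genes are short and hold a single exon, and in the TAIR10.1 annotation 50 of the 54 had 1 exon block and coding regions ran from 86 to 190 codons. The upstream regions of 5 of the 16 genes called with ABA in the authors' deposited table are shown first. Each window is the 250 bases before the annotated start of the gene, 5′ to 3′ on the gene's own strand, from the RefSeq copy of TAIR10.1, and the capitals mark the letters CACATG or their reverse complement CATGTG. This motif is the HUD-type E-box, a site type of growth-related bHLH factors. The first 3 genes had lower transcript levels with ABA and the last 2 had higher levels. The 5 are examples, and the 3 lowered genes shown are among those that hold the motif.
SAUR13 (AT4G38825, chr4:18121276-18121525, plus strand): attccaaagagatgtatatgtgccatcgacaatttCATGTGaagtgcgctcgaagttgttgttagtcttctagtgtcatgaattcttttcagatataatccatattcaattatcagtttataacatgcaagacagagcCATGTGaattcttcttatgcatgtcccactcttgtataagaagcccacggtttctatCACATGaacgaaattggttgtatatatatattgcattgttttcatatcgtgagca
SAUR62 (AT1G29430, chr1:10303419-10303668, minus strand): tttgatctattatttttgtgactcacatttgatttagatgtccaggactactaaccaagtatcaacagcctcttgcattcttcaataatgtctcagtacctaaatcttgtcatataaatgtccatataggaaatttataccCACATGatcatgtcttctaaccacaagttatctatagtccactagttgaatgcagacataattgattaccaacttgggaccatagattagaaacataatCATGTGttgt
SAUR27 (AT3G03840, chr3:980822-981071, plus strand): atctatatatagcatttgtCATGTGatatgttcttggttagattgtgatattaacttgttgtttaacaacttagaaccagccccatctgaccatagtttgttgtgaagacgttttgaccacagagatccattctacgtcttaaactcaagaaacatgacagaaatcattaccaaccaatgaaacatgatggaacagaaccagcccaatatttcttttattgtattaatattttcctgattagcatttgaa
SAUR72 (AT3G12830, chr3:4079628-4079877, minus strand): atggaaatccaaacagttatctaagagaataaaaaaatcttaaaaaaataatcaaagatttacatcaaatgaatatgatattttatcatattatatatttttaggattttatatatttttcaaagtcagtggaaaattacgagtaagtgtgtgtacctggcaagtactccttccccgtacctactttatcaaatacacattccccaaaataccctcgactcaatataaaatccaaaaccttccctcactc
SAUR32 (AT2G46690, chr2:19180455-19180704, plus strand): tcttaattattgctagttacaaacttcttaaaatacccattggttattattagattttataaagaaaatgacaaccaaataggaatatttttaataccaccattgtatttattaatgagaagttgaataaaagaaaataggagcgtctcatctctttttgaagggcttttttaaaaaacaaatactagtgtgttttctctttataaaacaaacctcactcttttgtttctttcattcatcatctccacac
The windows of SAUR72 and SAUR32 do not hold these letters. Not all lowered genes hold them: of the 14 called lower with ABA, 10 did (71.4%), and SAUR16, SAUR31, SAUR50 and SAUR78 did not. Among all 25 genes of the blocks on chromosomes 1, 4 and 5, called or not, 18 did (72%).

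CACATG, searched on both strands, was present in the windows of 27 of 54 SAUR genes (50%), against 11.1% of the windows of 27443 protein-coding genes of the same annotation. It was present in 18 of the 25 genes of the blocks on chromosomes 1, 4 and 5 (72%), in 8 of 8 genes of the block on chromosome 1, in 4 of 4 on chromosome 3, and in 3 of 16 single genes (18.8%). SAUR genes are related within blocks and across them, so their windows are not independent of each other. SAUR50 of chromosome 4, for example, was closest in coding sequence to the single gene SAUR8, at 82.9% identity. In the first block on chromosome 4, the motif nearest the start lay 70 bases before it in SAUR3, 69 bases in SAUR5 and 105 bases in SAUR4. SAUR2, SAUR49 and SAUR50 of this block had no match. The auxin response element TGTCTC was present in 7 of 54 windows (13%), against 10.9% of all genes, with 6 of the 7 in the blocks on chromosomes 1, 4 and 5 and 0 of 16 in single genes. ACGTG, the core of the ABA response element, was present in 6 of 54 (11.1%), against 22.9% of all genes. The G-box CACGTG, which contains ACGTG, was present in 1 of 54 (1.85%), against 6.49%. A match of letters is not a binding site, and a window without a match says nothing of the factor.

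**Figure D1:**
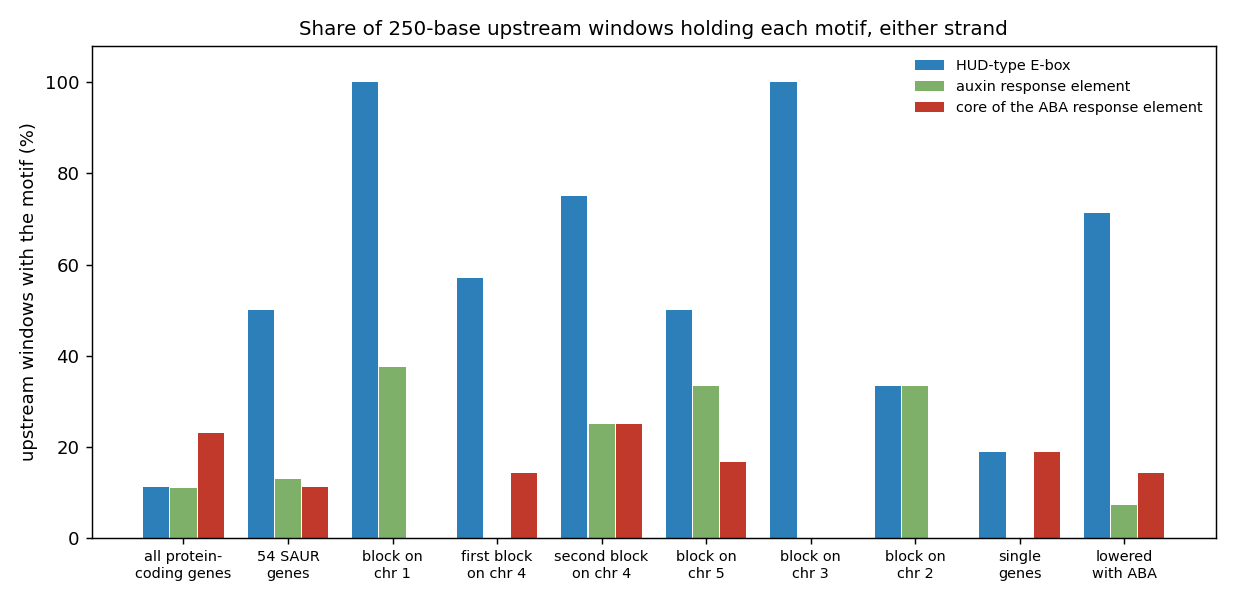
Share of 250-base upstream windows (vertical axis, percent) that hold CACATG (HUD-type E-box), TGTCTC (auxin response element) or ACGTG (core of the ABA response element) on either strand, for all protein-coding genes, for the SAUR genes, for their blocks and single genes, and for the 14 SAUR genes called lower with ABA. CACATG is in 100% of the windows of the blocks on chromosomes 1 and 3 and in 18.8% of those of the single genes. The blocks hold 3 to 8 genes, so 1 window moves a share by a large step.

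The blocks also differ in how alike their members are, which bears on counts from reads of 50 bases. The first 54 coding bases of the 6 genes of the block on chromosome 5, the SAUR19 group, show the problem, with the 8 positions that are not the same in all 6 in capitals.
SAUR19 (chr5:5963252-5963305, minus strand): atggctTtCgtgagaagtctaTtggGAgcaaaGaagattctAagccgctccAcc
SAUR20 (chr5:5966527-5966580, minus strand): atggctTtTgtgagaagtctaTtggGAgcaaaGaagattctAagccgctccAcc
SAUR21 (chr5:5968527-5968580, plus strand): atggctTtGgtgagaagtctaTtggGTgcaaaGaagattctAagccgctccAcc
SAUR22 (chr5:5974910-5974963, minus strand): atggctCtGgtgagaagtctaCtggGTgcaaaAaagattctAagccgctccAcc
SAUR23 (chr5:5976030-5976083, plus strand): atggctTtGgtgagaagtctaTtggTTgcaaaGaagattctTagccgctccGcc
SAUR24 (chr5:5983840-5983893, plus strand): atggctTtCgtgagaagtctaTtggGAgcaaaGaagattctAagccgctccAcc
The SAUR19 and SAUR24 stretches are the same over these bases. Coding identity between members of this block was 87.7% to 95.2%, against 77.7% to 86.2% on chromosome 3, 45.6% to 89.4% on chromosome 1, 41.5% to 62.7% in the first and 51.6% to 68.9% in the second block on chromosome 4. On chromosome 2 it was 40.2% to 54.3%. Between 20.0% and 62.0% of the 50-base windows of the chromosome 5 genes had a copy elsewhere in the genome with at most 2 mismatches. On chromosome 1 this share was 67.8% in SAUR63, 67.1% in SAUR67 and 54.1% in SAUR62, and at most 25.5% in the rest of that block. How reads that match 2 copies were assigned is not given in the sources used here. The deposited count of alignments that were not unique was 0 in every group, which does not say how such reads were treated. The 6 values of the chromosome 5 block, and those of SAUR62, SAUR63 and SAUR67, may therefore borrow from copies or lack reads shared with them. In all, 7 members had a copy of at least 90% coding identity, the 6 of chromosome 5 and SAUR62 of chromosome 1. The closest copy of SAUR62 is SAUR75 (AT5G27780), a locus outside the list, at 97.0%. SAUR63 and SAUR67 lay just below that limit, at 89.4% to each other. In addition, 7 members overlap a gene on the other strand, of which SAUR13, SAUR31 and SAUR64 are among the genes called with ABA.

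The deposited means are normalized counts, that is reads per gene divided by a size factor of the library and averaged over a group. The 2 libraries behind each mean were recovered from it. They are called the deeper and the shallower library of a group, and values are given in that order. Between 11.5 and 15.9 times 1e6 reads were assigned to genes per library, in 22416 to 22762 genes with a read. The correlation of the 2 libraries over the 16418 genes whose mean reached 50 was 0.981 in mock and 0.990 to 0.992 in the other groups, and the SD of the log2 difference of a pair was 0.336 in mock and 0.218 to 0.241 elsewhere. Over the 26 SAUR genes of that level it was 0.342 in mock and 0.260 to 0.306 elsewhere. SAUR25 and SAUR30 had 0 reads in all 8 libraries, and SAUR2 and SAUR40 had at most 1 read in any library. In all, 10 members had a mean under 10 over the 4 groups and 44 had more.

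Levels per length, in normalized counts per kb of annotated exon, set the single gene SAUR78 highest in mock, at 1598, above SAUR16 at 782, SAUR14 at 588, SAUR50 at 457, SAUR6 at 437 and SAUR20 at 415. SAUR78 is known to bind ethylene receptors, and SAUR16 and SAUR50 are known as light-induced genes of the cotyledon. The 2 mock libraries put SAUR6 at 560 and 666 normalized counts and SAUR50 at 359 and 457, so neighbours in this order with gaps of that size are not separated by it. The median level in mock was 125 per kb over the 25 genes of the blocks on chromosomes 1, 4 and 5 and 24.8 per kb over the single genes. With ABA these medians were 61.2 and 48.3 per kb, so that the distance between blocks and single genes was smaller. Names in this paragraph and among members that passed no test were chosen after their values were seen, except the highest member of each block.

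With ABA, SAUR transcripts of the blocks lay below mock and those of most single genes above it. In the authors' deposited table, 14 of the 50 members tested with ABA fell at an adjusted p under 0.05, when 5.12% of the 24069 genes tested did, and 2 rose, when 10.3% did. Of the 14, 9 lay in the blocks on chromosomes 1, 4 and 5, 2 on chromosome 3, 1 on chromosome 2 and 2 were single genes, and both raised members were single genes. Every one of the 24 members tested in the blocks on chromosomes 1, 4 and 5 had a lower mean with ABA than in mock, while 10 of the 13 single genes tested had a higher one. The share over all genes with a lower mean was 50.9%. The median log2 fold change was -0.89 in the blocks, 0.82 in the single genes, -0.77 in all members and -0.01 in all genes tested. The difference between blocks and single genes was not tested. Both ABA libraries lay below both mock libraries in 36 of 50 members, against 28.7% of all genes, and above both in 8, against 29.8%. limma on the recovered libraries, fitted to the 44 members with a mean of at least 10, called 24 lower and 6 higher, against 14.3% and 18% of 19617 genes. All 14 and both raised members were among them.

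**Figure D2:**
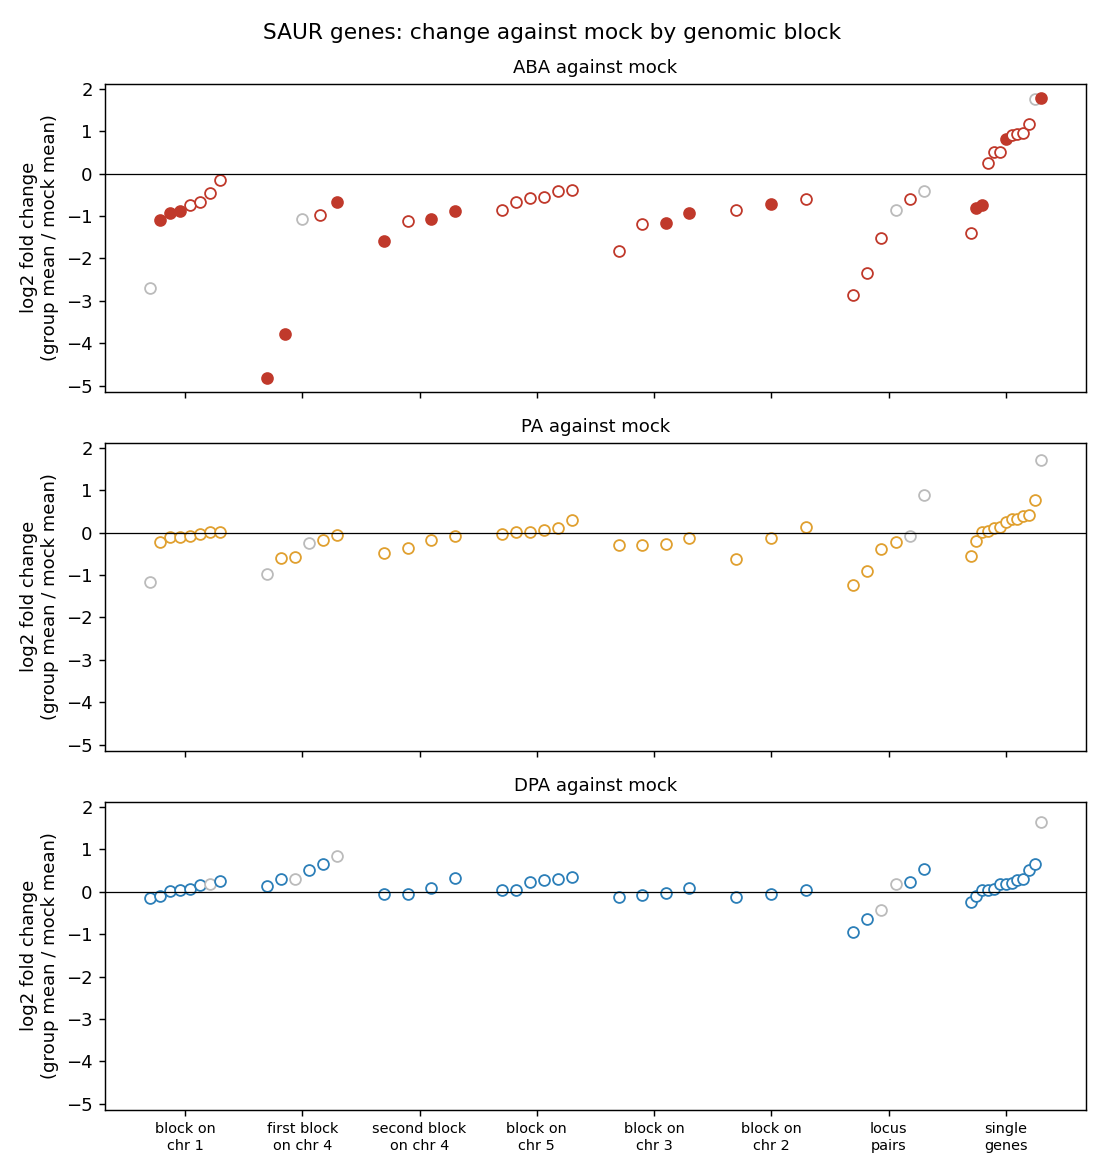
Deposited log2 fold change of each SAUR gene against mock (vertical axis) by genomic block (horizontal axis), for ABA, PA and DPA. Filled points have a deposited adjusted p under 0.05, grey rings have a mean under 10 over the 4 groups, and genes with a mean of 0 in either group are not drawn. With ABA all drawn points of the blocks lie below 0, from -4.81 to -0.14, and with PA and DPA no point is filled.

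The largest falls were in the first block on chromosome 4. SAUR1 had normalized counts of 128 and 82.9 in mock libraries, 2.61 and 4.90 under ABA, 58.2 and 83.0 under PA, and 152 and 181 under DPA. Both ABA libraries lay far below the other 6, with 3 and 4 reads, and both DPA libraries lay above both of mock. The mean with ABA was 28.0-fold lower than in mock (deposited log2 fold change -4.81, DESeq adjusted p = 1.39e-08; limma estimate -4.49, SE 0.32). SAUR3 had 76.6 and 73.0 in mock libraries, 3.48 and 7.35 under ABA, 47.1 and 51.4 under PA, and 67.9 and 96.0 under DPA, a fall of 13.8-fold with ABA (adjusted p = 6.46e-11; limma estimate -3.63, SE 0.32). In SAUR3 the PA libraries lay between those of ABA and mock, with no overlap on either side. SAUR50, the most abundant gene of this block, moved far less. It had 359 and 457 in mock libraries, 246 and 267 under ABA, 413 and 375 under PA, and 501 and 499 under DPA, 1.59-fold lower with ABA (adjusted p = 0.0193; limma estimate -0.66, SE 0.12), and its DPA libraries were the highest of the 8. Of the other 4 genes of the block, SAUR49 had 71.5 and 63.2 in mock and 33.1 and 35.5 with ABA (deposited adjusted p = 0.0805, limma adjusted p = 0.00295). SAUR2, SAUR4 and SAUR5 had means under 10. SAUR5 had 4 and 3 reads in mock and 0 in both ABA libraries. The block's median log2 fold change was -2.43, or -1.15 with SAUR5 set at a floor of 3 reads over the group.

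In the second block on chromosome 4, SAUR13, SAUR14 and SAUR16 fell with ABA. SAUR15, the first SAUR gene cloned from Arabidopsis (SAUR-AC1), had a deposited adjusted p of 0.117, and limma called it lower (estimate -1.09, limma adjusted p = 0.0114). SAUR16 had 776 and 862 in mock libraries, 371 and 412 under ABA, 796 and 767 under PA, and 818 and 747 under DPA. ABA gave the 2 lowest libraries, and the 6 others overlapped. It was 2.10-fold lower with ABA (adjusted p = 1.50e-09; limma estimate -1.07, SE 0.09). SAUR14 had 350 and 334 in mock libraries, 169 and 202 under ABA, 315 and 295 under PA, and 317 and 339 under DPA, 1.84-fold lower with ABA (adjusted p = 1.42e-04). SAUR13 had 77.6 and 94.8 in mock libraries, 24.4 and 33.1 under ABA, 65.9 and 58.5 under PA, and 78.9 and 136 under DPA, 3.00-fold lower with ABA (adjusted p = 3.91e-04). The SAUR13 gene overlaps AT4G38820 on the other strand, which also fell with ABA (log2 fold change -1.87, adjusted p = 1.35e-05), and since the protocol does not say that strand was marked, reads of the 2 genes cannot be told apart.

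The block on chromosome 1 holds the SAUR63 group, whose members promote the elongation of hypocotyls and flower organs. With ABA 3 of its 8 genes fell, all 8 had lower means, and both ABA libraries lay below both mock libraries in all 8. Over all genes tested these shares were 5.12%, 50.9% and 28.7%. SAUR62, also known from pollen tube growth, had 279 and 317 in mock libraries, 135 and 143 under ABA, 270 and 240 under PA, and 255 and 300 under DPA. The ABA libraries lay apart from the rest, and the mean was 2.14-fold lower than in mock (adjusted p = 8.81e-06; limma estimate -1.09, SE 0.13). Its near copy SAUR75 had group means from 0 to 3.56. SAUR64 had 157 and 164 in mock libraries, 78.3 and 90.6 under ABA, 155 and 148 under PA, and 157 and 180 under DPA, 1.90-fold lower with ABA (adjusted p = 0.00522). SAUR65 had 105 and 119 in mock libraries, 52.2 and 68.6 under ABA, 109 and 116 under PA, and 101 and 131 under DPA, 1.86-fold lower with ABA (adjusted p = 0.0262). In both genes the ABA libraries did not overlap those of any other group. SAUR64 overlaps AT1G29435 on the other strand, a locus not analysed here. The smallest change of the block was that of SAUR66, with 171 and 195 in mock and 168 and 164 with ABA (log2 fold change -0.14, adjusted p = 0.921).

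In the block on chromosome 5, the SAUR19 group that inhibits PP2C-D phosphatases, no gene was called with ABA in the deposited table. There 2 of 6 were lower at an unadjusted p under 0.05, as were 9.58% of all genes. By limma 2 of 6 were called lower, against 14.3% of all genes. SAUR20, its most abundant gene, had 190 and 221 in mock libraries, 139 and 137 under ABA, 225 and 215 under PA, and 226 and 197 under DPA (log2 fold change with ABA -0.57, deposited adjusted p = 0.0915; limma estimate -0.57, SE 0.12, adjusted p = 0.00708). The ABA libraries were the lowest 2 of the 8. All 6 genes had lower means with ABA, from -0.87 to -0.39 on the log2 scale, and in 5 of the 6 the ABA libraries lay below those of mock. Over all genes tested these shares were 50.9% and 28.7%. As a block, its summed level with ABA was 69.1% of mock, against 61.0% on chromosome 1, 45.6% and 48.4% in the first and second block on chromosome 4, 47.1% on chromosome 3 and 85.2% in the single genes. The sum of the single genes was carried by SAUR78, and the 15 others summed to 964 and 1013 in mock libraries and 1349 and 1304 under ABA, 134% of mock.

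On chromosome 3 lies the SAUR26 group, which is known from growth at raised temperature. SAUR27 had 101 and 101 in mock libraries, 49.6 and 57.6 under ABA, 88.2 and 95.9 under PA, and 110 and 104 under DPA, 1.89-fold lower with ABA (adjusted p = 0.0329). SAUR26 had 65.4 and 54.5 in mock libraries, 27.8 and 25.7 under ABA, 47.1 and 50.3 under PA, and 50.9 and 67.1 under DPA, 2.24-fold lower with ABA at an adjusted p just under the threshold (0.0499). In both genes PA lay below mock and above ABA in both libraries. On chromosome 2, SAUR6 had 560 and 666 in mock libraries, 378 and 365 under ABA, 599 and 519 under PA, and 621 and 497 under DPA, 1.65-fold lower with ABA (adjusted p = 3.78e-04). Its gene model overlaps that of SAUR7 on the same strand. Among the 3 locus pairs no gene was called with ABA in the deposited table. There 3 of the 6 were lower at an unadjusted p under 0.05, against 9.58% of all genes. limma called 3 of the 4 it fitted lower, against 14.3% of all genes. SAUR76, which like SAUR78 binds ethylene receptors, had the largest change of these, with 14.3 and 16.4 in mock libraries, 1.74 and 2.45 under ABA, 5.99 and 7.01 under PA, and 22.0 and 22.7 under DPA (log2 fold change with ABA -2.87, deposited adjusted p = 0.0547; limma estimate -2.41, SE 0.44, adjusted p = 0.00248). SAUR52 had 17.4 and 16.4 in mock libraries and 1.74 and 4.90 under ABA (log2 fold change -2.34, deposited adjusted p = 0.0734; limma adjusted p = 0.00791). SAUR54, the most abundant gene of another pair, had 27.6 and 41.4 in mock libraries and 19.1 and 4.90 under ABA (-1.52, deposited adjusted p = 0.171; limma adjusted p = 0.0339). SAUR51, the most abundant gene of the last pair, had a log2 fold change of -0.60 (deposited adjusted p = 0.860; limma adjusted p = 0.313).

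Single genes went both ways with ABA. SAUR72, a member of the SAUR41 group, had 24.5 and 20.7 in mock libraries, 79.2 and 77.2 under ABA, 38.5 and 38.6 under PA, and 20.0 and 26.8 under DPA. ABA gave the highest libraries, PA lay between them and mock, and DPA overlapped mock. The rise with ABA was 3.46-fold (adjusted p = 2.29e-04; limma estimate 1.75, SE 0.24). SAUR32, whose overexpression abolishes the apical hook of dark-grown seedlings, had 308 and 318 in mock libraries, 564 and 538 under ABA, 413 and 373 under PA, and 384 and 327 under DPA, 1.76-fold higher with ABA (adjusted p = 5.13e-05; limma estimate 0.81, SE 0.10). Both PA and both DPA libraries lay above both mock libraries and below both ABA libraries. SAUR36, known from leaf senescence, had a log2 fold change with ABA of 0.91 (adjusted p = 0.146), and SAUR41 and SAUR71, relatives of SAUR72, had 1.16 and 0.96 (adjusted p = 0.0728 and 0.349).

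The 2 single genes that fell were among the more abundant members. SAUR78 had 1862 and 1989 in mock libraries, 1330 and 982 under ABA, 1270 and 2063 under PA, and 1858 and 2481 under DPA. Its ABA libraries lay below mock, but the lower PA library lay among those of ABA. It was 1.67-fold lower with ABA (adjusted p = 8.21e-04; limma estimate -0.75, SE 0.22), and the limma call was lost on leaving out the shallower ABA library or either mock library. SAUR31 had 325 and 347 in mock libraries, 193 and 191 under ABA, 380 and 311 under PA, and 362 and 345 under DPA, 1.75-fold lower with ABA (adjusted p = 0.00101). Only the ABA libraries of SAUR31 lay apart from the rest. SAUR31 overlaps a locus on the other strand that was not analysed here.

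**Figure D3:**
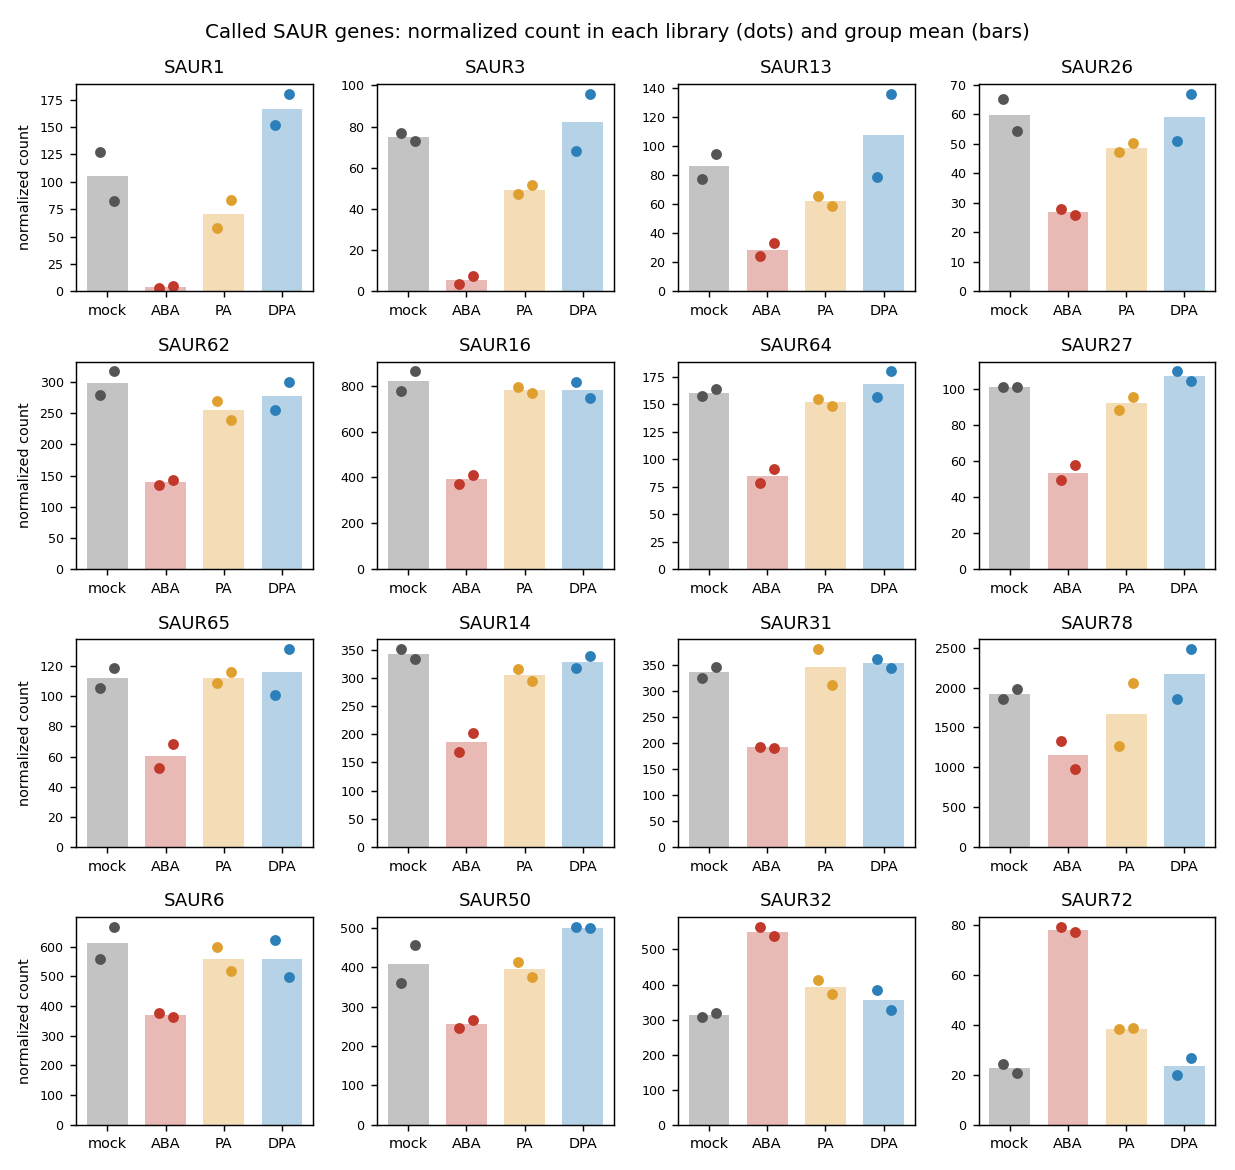
Normalized count (vertical axes, each starting at 0) of the 16 SAUR genes called with ABA in each of the 4 groups; dots are the 2 libraries, the deeper at left, and bars are group means. The ABA dots lie below all mock dots in the first 14 panels and above them in the last 2, SAUR32 and SAUR72.

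With PA no member was called against mock in the deposited table, 0 of 52 tested at an adjusted p under 0.05 by DESeq and also 0 at an unadjusted p under 0.05, and limma called 0 of 44. Over all genes 0.146% were called lower and 1.18% higher, at an unadjusted p under 0.05 they were 1.27% and 3.14%, and by limma 0.311% and 1.84%. Of the 14 members that fell with ABA, 12 had a mean below mock with PA, as had 51.7% of all genes, and in 7 both PA libraries lay below both of mock, against 18.2% of all genes tested with PA. Among all members tested, 15 of 52 lay below mock in both libraries and 5 above, the latter against 18.5% of all genes. The median log2 fold change was -0.07 over the members, -0.08 in the blocks on chromosomes 1, 4 and 5 and 0.29 in the single genes. With a group at 0 set to the floor of 3 reads, that of the single genes was 0.195. The medians over the members and over the blocks changed sign, to 0.091 and 0.093, when the shallower mock library was left out. Among members whose mean reached 10, the lowest were SAUR76, at -1.24, and SAUR52, at -0.91, the genes of locus pairs, and the highest was SAUR72, at 0.77. The ABA and PA comparisons share the mock libraries. The 14 were chosen for lying below mock with ABA, so shares over all genes are not a like baseline for their 12 and 7. Of all 52 members tested, 30 had a mean below mock with PA.

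With DPA no member was called against mock either, 0 of 51 at an adjusted p under 0.05 by DESeq, 1 higher at an unadjusted p under 0.05, and 0 by limma, which called 0 of all genes. Over all genes 0.00417% were called lower and 0.00834% higher, and at an unadjusted p under 0.05 they were 0.392% and 0.526%. The gene with the unadjusted p was SAUR1, at 1.58-fold of mock (DESeq adjusted p = 1). In the blocks on chromosomes 1, 4 and 5, 21 of 25 members had a mean above mock, as had 11 of 13 single genes tested, when 49.3% of all genes had one below it. The 21 include all 7 of the first block on chromosome 4, of which SAUR2 had 0 reads in mock and 1 read in 1 DPA library. In that block the log2 fold changes of the 4 genes that reached a mean of 10 ran from 0.13 to 0.66. Both DPA libraries lay above both mock libraries in 13 of 51 members, against 15.4% of all genes, and below in 2, against 15.9%. The median log2 fold change was 0.13 over the members, 0.18 in the blocks and 0.19 in the single genes, and on leaving out single libraries these ran from 0.056 to 0.21, from 0.059 to 0.32 and from 0.076 to 0.22. With a group at 0 set to the floor of 3 reads, the medians were 0.084 over the members and 0.147 in the blocks. The median of the blocks was 0.059 without the deeper and 0.32 without the shallower mock library, that of the single genes was 0.076 without the deeper and 0.11 without the shallower DPA library, and that of the members was at most 0.079 without either DPA library or the deeper mock library. Summed over the 54 genes, the level was 7114 and 7828 in mock libraries, 5099 and 4880 under ABA, 6870 and 7173 under PA, and 7752 and 8293 under DPA. The ABA libraries were the lowest and the DPA libraries overlapped those of mock.

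The compounds were given at the same dose and time, and 3 pairs were compared by limma with adjustment over all 19617 genes in each. PA against ABA gave 16 members higher and 2 lower of 44, when 7.34% of all genes were higher and 12.6% lower, and DPA against ABA gave 28 higher and 4 lower, when 15.5% and 18.6% were. In the blocks on chromosomes 1, 4 and 5, 12 of 21 were higher with PA than with ABA and 18 of 21 with DPA, with 0 lower in each. Of the 12 single genes fitted, 1 was higher and 2 lower with PA than with ABA, and 3 were higher and 4 lower with DPA. These contrasts use the same ABA libraries as the comparison with mock. Of the 14 members that ABA lowered, 13 were higher with PA than with ABA and all 14 with DPA. The exception was SAUR78, whose PA libraries were far apart (difference 0.50 on the log2 scale, 95% interval -0.0019 to 1.01, adjusted p = 0.157). The count of 16 members higher with PA than with ABA was 10 without the deeper ABA library and 10 without the deeper PA library. The compounds were also compared through the authors' deposited fold changes, by a normal test whose errors came from the deposited p. It called 4 members higher with PA and 10 with DPA than with ABA, and 0 lower. The share of all genes called by it is not given here, so these counts are not set against other genes.

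The differences were largest in SAUR1 and SAUR3. SAUR1 was higher than with ABA by 3.93 on the log2 scale with PA (95% interval 3.22 to 4.65) and by 5.17 with DPA (4.46 to 5.89). SAUR3 was higher by 3.04 with PA (2.31 to 3.76) and by 3.74 with DPA (3.02 to 4.47). The other 12 members lowered by ABA were between 0.50 and 1.10 higher with PA and between 0.58 and 1.83 higher with DPA. The 2 members that ABA raised were lower with both compounds, SAUR72 by 1.00 with PA (interval of PA minus ABA -1.55 to -0.45) and SAUR32 by 0.49 (interval -0.72 to -0.25). With PA both calls were lost without the deeper ABA library and without the shallower PA library, and that of SAUR72 also without either of the other 2 ABA and PA libraries. With DPA both calls were kept on leaving out each of the 8 libraries. The genes called beyond the 16, which were 3 with PA and 16 with DPA, included SAUR20 at 0.67 and 0.61, SAUR22 at 1.12 and 1.12, and SAUR49 at 0.79 and 1.46. Those 3 are block members on chromosomes 5 and 4.

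PA and DPA, which differ by the reduction of a ketone, were not separated in any member by limma at an adjusted p under 0.05, when 1.39% of all genes were higher and 2.44% lower with DPA. At an unadjusted p under 0.05, 5 of 44 members were higher and 1 lower with DPA, near the 9.61% and below the 9.75% of all genes. SAUR1 came nearest, with DPA higher than PA by 1.24 on the log2 scale (95% interval 0.53 to 1.95, adjusted p = 0.0662). Without the deeper mock library SAUR1 and SAUR50 were called higher with DPA (adjusted p = 0.0315 and 0.0462), and without the shallower mock library they were too (0.0305 and 0.0480). Mock enters this difference only through the spread shared by all groups. For SAUR16 the difference was 0.0006 with an interval of -0.21 to 0.21, and for SAUR6 -0.01 with -0.30 to 0.29, so that differences larger than these bounds lie outside the intervals. For SAUR72 it was -0.71 (-1.26 to -0.16, adjusted p = 0.148). Of the 44 members fitted, 30 had a higher estimate with DPA than with PA, when 49.1% of all genes had. They included all 4 fitted in each block on chromosome 4, all 4 on chromosome 3, 6 of 7 on chromosome 1 and 4 of 6 on chromosome 5. Of the single genes fitted, 5 of 12 did.

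**Figure D4:**
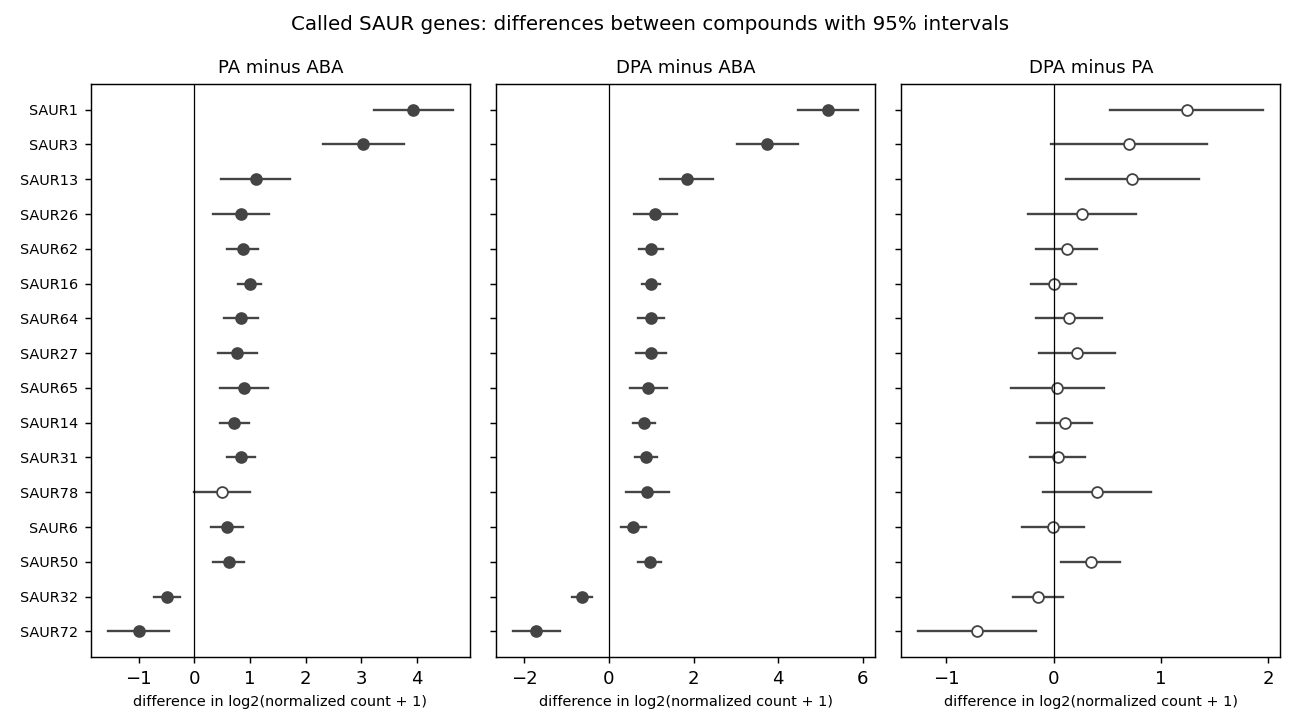
limma difference in log2(normalized count + 1) between compounds (horizontal axes) for the 16 SAUR genes called with ABA; lines are 95% intervals and filled points have an adjusted p under 0.05 over all genes. The 14 lowered genes lie to the right of 0 against ABA, SAUR78 with PA being the open point, and no point is filled for DPA minus PA.

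Known partners of SAUR proteins and auxin signalling went both ways with ABA. Counts are those of the deposited table, where 5.12% of all genes fell and 10.3% rose, and limma's are given where they differ, against 14.3% and 18% of all genes. Of the 9 PP2C-D phosphatases, the targets of SAUR inhibition, 1 fell and 3 rose, and limma called 0 lower and 4 higher. AT5G02760 was at 1062 and 1224 in mock and 866 and 763 with ABA (adjusted p = 0.0126; limma adjusted p = 0.0985), and AT4G33920 was at 332 and 350 in mock and 584 and 561 with ABA (adjusted p = 2.04e-04). The other 2 that rose were AT5G66080 and AT3G51370, with log2 fold changes of 0.71 and 0.39 (adjusted p = 0.00583 and 0.0286). Of 10 plasma membrane proton pumps tested, 1 rose, HA3, by 0.34 on the log2 scale (adjusted p = 0.0444), and 0 fell, while limma called 1 of 9 higher and 1 lower. The lower pump was HA2, with 11557 and 7286 in mock libraries and 3405 and 4473 under ABA (log2 fold change -1.26, deposited adjusted p = 0.0518; limma adjusted p = 0.00339). HA1, with HA2 a main pump of the plant, had a log2 fold change of 0.13 (adjusted p = 0.666). Of 6 auxin receptors, GRH1 (AFB1) fell, from 525 and 516 in mock to 208 and 217 with ABA (adjusted p = 1.48e-10), and the 5 others passed no threshold. Of 5 activating auxin response factors, ARF6 and ARF19 fell, with log2 fold changes of -0.48 and -0.50 (adjusted p = 0.00976 and 0.0280), and 0 rose. By limma 2 were also higher, MP (ARF5) and NPH4 (ARF7), with estimates of 0.52 and 0.23 (limma adjusted p = 0.0456 and 0.0361; deposited 0.289 and 0.305), and both ABA libraries of each lay above both of mock. HA1, HA2, MP and NPH4 were named after their values were seen.

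Among 10 growth-related transcription factors, 4 fell with ABA and 1 rose. HBI1, a bHLH factor that promotes cell elongation, was at 3008 and 2903 in mock libraries, 737 and 690 under ABA, 2192 and 2305 under PA, and 2776 and 2836 under DPA, 4.14-fold lower with ABA (adjusted p = 1.40e-44). Its relatives BEE1 and BEE3 fell as well, with log2 fold changes of -1.74 and -1.34 (adjusted p = 2.49e-04 and 1e-06), as did PIL5 (PIF1), at -0.75 (adjusted p = 1.35e-04). PIF3 rose, from 342 and 330 in mock to 1415 and 1160 with ABA (adjusted p = 8.71e-15), and it was the 1 gene of these 5 lists called with PA in the deposited table, at 483 and 599 (log2 fold change 0.69, adjusted p = 0.0493). limma also called it higher with PA (adjusted p = 0.0317), and called HBI1 lower with PA (estimate -0.39, limma adjusted p = 0.0215; deposited 0.128). With DPA 0 genes of the 5 lists were called in the deposited table, where 0.00417% and 0.00834% of all genes were, 0 had an unadjusted p under 0.05, and limma called 0.

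Both organs were represented in every group. The 4 shoot markers (RBCS1A, CAB2, LHCB2.1 and LHCA1) summed to 202275 and 238991 in the mock libraries and 173752 to 209647 with ABA, all 4 had lower means with ABA, and 0 were called in the deposited table or by limma. The 5 root markers (PYK10, IRT1, SHV2, NRT2:1 and EXPA7) summed to 29122 to 31439 in mock and 20899 to 23195 with ABA, all 5 had lower means, and PYK10 and IRT1 were called in the deposited table, of which limma called IRT1, standing at 0 in both ABA libraries. limma also called IRT1 lower with PA. Without PYK10 the other 4 summed to 90.5 to 257 in mock, 24.4 to 66.1 with ABA, 45.6 to 53.9 with PA and 157 to 185 with DPA. With PA 3 of the 4 shoot markers had higher means and 4 of the 5 root markers lower ones. In whole seedlings fewer cells of a type and less RNA per cell cannot be told apart, and the part of the root and shoot markers in the SAUR values was not tested.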

How the data were processed

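Polyadenylated RNA of 8 whole-seedling libraries was sequenced as single reads of 50 bases, per the labels' protocols. The submitters' processing notes name TopHat 1.4.1, HTSeq and DESeq 1.8.3 with TAIR10, without roles. The authors deposited, per the file headers, 3 tables against mock with group means (a signal, read counts divided by size factors), a fold ratio of the means, and p-values and adjusted p-values. Of the normalized total, 48.2% to 48.5% was assigned to no gene and stayed out, as did all 5 rows that name no gene. A Benjamini-Hochberg adjustment matched the deposited adjusted p to within 3.06e-13. Log2 fold changes were computed here from the deposited ratios. Each mean is a sum of whole reads of 2 libraries times a step per library, from which reads were recovered, with a single split for 100% of the values above 0 (relative tolerance 1e-12). The implied size factors, deeper library first, were 0.979 and 0.917 (mock), 1.15 and 0.816 (ABA), 1.17 and 0.855 (PA), and 1.00 and 0.968 (DPA). The recovered libraries carry no replicate number.

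Calls against mock are the authors' deposited adjusted p under 0.05. Compounds were compared with limma 3.58.1 (R 4.3.3) with a trend on log2(normalized count + 1), minimum mean 10, 4 groups in a single fit with 4 residual and 5.37 prior degrees of freedom, after tests on simulated data. The pseudocount shrinks differences of low genes. Medians are descriptions. P-values rest on the spread of biological duplicates. Recovered reads hold no molecular identifiers, so a number of reads is not a number of molecules. Read numbers carry the spread between libraries as well as counting error. Named genes are all members and partner genes called in any deposited comparison and the most abundant member of each block; others are said to be chosen after their values were seen. The members, lists and markers were chosen with earlier results of these data known. Positions and sequences are RefSeq's TAIR10.1; the files hold no coordinates. The upstream sequence of a further member is not reported here. The annotation gives the name SAUR68 to AT1G29490 and AT1G29510, and the latter is called SAUR67 here. Windows of 50 bases were matched with bwa 0.7.19. Alternatives were other tests, thresholds, pseudocounts, minimum means and scaling, subsets of members, and leaving out each library; limma with upper-quartile scaling against mock was chosen after seeing the data.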

Additional observations from a re-analysis of the deposited data

How the results depend on the processing

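No paired analysis was possible because the deposited columns are group means, and the recovered libraries carry no replicate numbers. Against mock, limma on the recovered libraries gave 24 members lower and 6 higher with ABA in place of 14 and 2, and with upper-quartile scaling, chosen after seeing the data, 27 and 4. Upper-quartile scaling moved the log2 fold changes of all genes with ABA by a median of -0.09. Shares of all genes called are not given for the scaled fit or for the fits without a library that follow. Their counts of members are therefore not set against other genes. Leaving out each library in turn, limma gave 17 to 23 lower and 2 to 5 higher with ABA, and 0 of either with PA or DPA. An adjusted p under 0.01, leaving out near-identical members, and leaving out members that overlap a gene on the other strand each kept the ABA counts within 1.5 times. Of the 16 called members, SAUR65 lost its limma call without the deeper ABA library, SAUR78 lost it without the shallower ABA library or either mock library, and the other 14 kept theirs.

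Between compounds, the normal test with errors implied by the deposited p gave 4 members higher and 0 lower for PA against ABA (16 and 2 by limma). For DPA against ABA it gave 10 higher and 0 lower (28 and 4 by limma). Its errors count mock in both terms. Shares of all genes are not given for this test or for the alternative fits that follow. Their counts are therefore not set against other genes. A minimum mean of 50, which removes low members, gave 1 lower for PA against ABA and 2 lower for DPA against ABA, and upper-quartile scaling gave 2 lower for DPA against ABA. DPA against PA gave 1 higher with no minimum mean and 1 with a pseudocount of 5. Without single libraries, PA against ABA ran from 10 to 17 higher and 0 to 3 lower, DPA against ABA from 19 to 28 higher and 2 to 5 lower, and DPA against PA from 0 to 2 higher. The low counts of 10 for PA against ABA came without the deeper ABA and without the deeper PA library.

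With upper-quartile scaling the median log2 fold change with ABA was -0.86 over the members and -0.97 in the blocks on chromosomes 1, 4 and 5. Over members with a mean of at least 10 the DPA median was 0.077. Without single libraries the ABA median ran from -0.86 to -0.70 over the members, from -1.02 to -0.76 in the blocks and from 0.56 to 0.93 in the single genes. The PA median ran from -0.16 to 0.091 over the members and from -0.18 to 0.093 in the blocks, and the DPA median over the members from 0.056 to 0.21. Apart from the implied errors and the smaller sets, the cause of these moves was not tested. The limma fits leave out members with means under 10.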

Other observations

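Of the 24 SAUR-annotated loci outside the list, 20 were tested with ABA in the authors' deposited table, and 2 were called lower and 2 higher, against 5.12% and 10.3% of all genes. SAUR74 (AT3G12955) had 9.19 and 4.36 normalized counts in the mock libraries and 33.9 and 33.1 under ABA (log2 fold change 2.31, DESeq adjusted p = 0.0062). SAUR35 (AT4G12410) had 3.06 and 4.36 in mock and 22.6 and 30.6 under ABA (2.84, adjusted p = 0.0055). Their group means were 5.06 and 1.17 with PA, and 5.61 and 3.60 with DPA. SAUR57 (AT3G53250) had 72.5 and 70.9 in mock and 40.0 and 22.0 under ABA (-1.21, adjusted p = 0.0312), and SAUR37 (AT4G31320) had 35.8 and 18.5 in mock and 2.61 and 6.12 under ABA (-2.64, adjusted p = 0.0268). These 4 were named after their values were seen. With PA and DPA 0 of the 18 loci tested in each were called by DESeq, 0 had an unadjusted p under 0.05, and limma called 0 of 6.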
